A study of Mus musculus with 6 samples.

Results

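The genes described here encode the steps of glycolysis from glucose uptake to lactate export, the kinases that hold pyruvate back from the mitochondria, and a set of genes that respond to low oxygen. They were chosen by name, with earlier results of these data known. They are 37 gene symbols whose transcript rows were summed per gene, of 38483 genes in the deposited table. All 37 passed the filter on low counts. The series compared mouse CD4+CD62L+ T cells, a naive helper T cell fraction taken from spleen with a bead isolation kit, of 2 genotypes on the B10.RIII strain: wild-type (IL-17A+/+) and knockout (IL-17A-/-), which lacks the cytokine IL-17A. Cells of both genotypes were cultured for 3 days under Th17 polarization in medium holding 10 ng/ml of IL-6, 10 ng/ml of IL-23, 1 ng/ml of TGF-β and 10 μg/ml of each of the antibodies to IL-4 and IFN-γ, so no library comes from unpolarized cells or from cells kept in another oxygen level. Poly(A) RNA was sequenced from 3 biological replicates of each genotype, numbered 1 to 3 in both, with 47335736 to 49743762 estimated counts per library. What a replicate number marks, how old the animals were and how many were used per library is not given in the sources used here.

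Glycolysis turns glucose into pyruvate in the cytosol, and activated T cells run it at a high rate, passing much of the pyruvate on to lactate even where oxygen is present. Transcription of most genes of the pathway can be raised by HIF-1, a factor made of HIF-1α and ARNT. In oxygen, prolyl hydroxylases mark HIF-1α and the von Hippel-Lindau protein directs it to breakdown, and Th17 cells are a T cell type in which HIF-1α and glycolysis are known to be prominent.

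The knockout label was checked first. Il17a stood at 161, 211 and 108 CPM (estimated counts scaled to library size by edgeR's trimmed mean of M-values) in wild-type libraries 1, 2 and 3 and at 1.11, 0 and 0.0202 CPM in knockout libraries 1, 2 and 3, where 3 counts correspond to between 0.0586 and 0.0676 CPM. Knockout libraries 1 and 2 stood apart in sex-linked transcripts, with Xist at 2.58 and 0 CPM against 567 to 664 CPM in the other 4 libraries, and Ddx3y at 44.5 and 38.0 CPM against at most 0.452 CPM. The CD4 T cell marker list summed to 3548 to 5331 CPM in wild-type and 3882 to 4790.0 CPM in knockout libraries, and all 10 of its genes were detected. The Th17 list (7 of 7 detected, Il17a included) summed to 771, 775 and 766 CPM in wild-type and to 1438, 781 and 1459 CPM in knockout libraries 1, 2 and 3. Il17a, at the values given above, makes up part of the wild-type sums and almost none of the knockout sums. Markers of other cells were present as well. The B cell list (10 of 10 genes detected) summed to 1051, 582 and 371 CPM in wild-type and to 2140.35, 1192 and 575 CPM in knockout libraries 1, 2 and 3, and the CD8 T cell list (6 of 6 detected) to between 920.1 and 1941 CPM and between 1279.8 and 1666 CPM. Myeloid genes summed to between 91.1 and 421 CPM and between 143 and 680.5 CPM, NK genes to at most 242 CPM and erythroid genes to at most 5.30 CPM, with 1 of 5 erythroid genes at 0 in every library. In such bulk samples, fewer cells of a type and less RNA per cell cannot be told apart.

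In the wild-type cultures, Gapdh and Aldoa had the highest levels per transcript length. On a per-length scale (counts per kilobase, with each library scaled to the same total over transcripts of at least 300 nucleotides), Gapdh, which oxidises glyceraldehyde 3-phosphate, had a level of 4063 ± 1459 (SD, n = 3). It was followed by the aldolase gene Aldoa at 2483 ± 520 (SD, n = 3), the enolase gene Eno1 at 2288 ± 551, the phosphoglycerate kinase gene Pgk1 at 1944 ± 545, Ldha at 1935 ± 484 and the pyruvate kinase gene Pkm at 1791 ± 534. From Aldoa to Pkm, each of these neighbours differed by less than its SD. At the other end of the order were Eno2 at 13.7 ± 0.803, the monocarboxylate transporter gene Slc16a1 at 11.2 ± 3.34 and Pfkfb4 at 8.37 ± 1.33 on the same scale. Between them, the glucose transporter gene Slc2a3 had a level of 294 ± 294, an SD as large as its mean, and Hif1a one of 201 ± 57.5. The Gapdh value is uncertain, because genes whose transcripts are at least 95% identical to it over 200 bases or more held counts equal to 258% of its own. The same holds with a lower share for Pgk1 (31.5%) and Pgam1, and for no other member did such copies reach 1%.

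The widest differences among these genes lay between replicate numbers, in the same order in both genotypes. Libraries numbered 1 had the lowest and libraries numbered 3 the highest CPM, in wild-type and in knockout alike, for 28 of 37 genes, against 9.16% of all 15121 genes tested, and none of the 37 had the opposite order, against 8.29%. Summed over the 37 genes, the level was 19320 CPM, 30449 CPM and 34160 CPM in wild-type libraries 1, 2 and 3 and 17055 CPM, 25048 CPM and 31407 CPM in knockout libraries 1, 2 and 3. The sums of the 2 genotypes thus interleave, with each knockout sum below the wild-type sum of its own number. From number 1 to number 3 the median difference over the members was 0.85 on the log2 CPM scale (mean of both genotypes), against -0.03 over all genes tested.

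**Figure D1:**
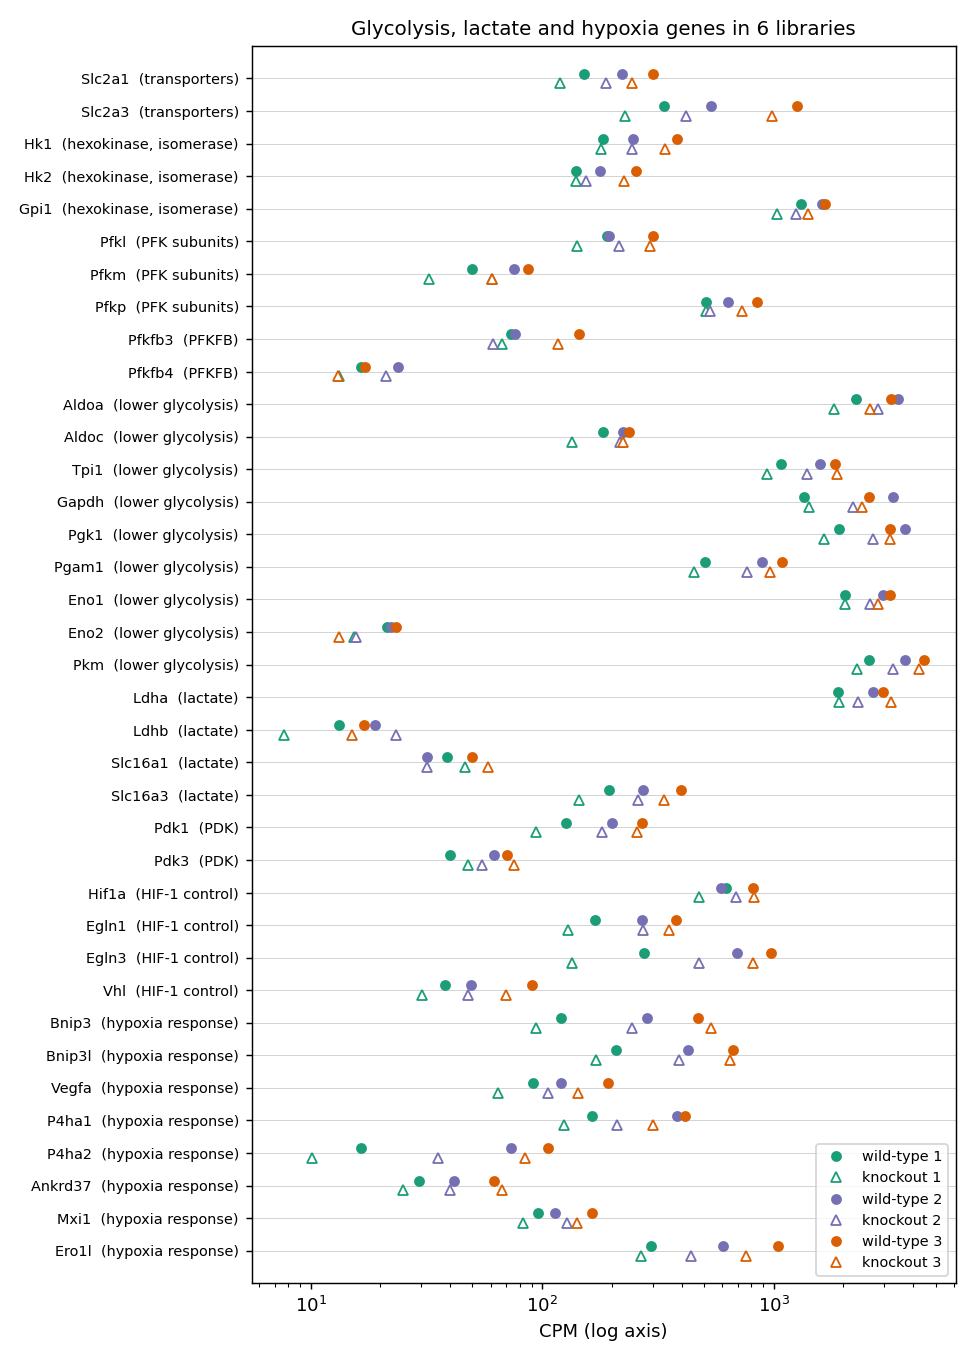
CPM of each of the 37 genes (rows, with their role) in the 6 libraries, on a log axis: filled circles are wild-type, open triangles knockout, and colour is the replicate number. Number 1 lies to the left and number 3 to the right in both genotypes for 28 of 37 genes. Eno2 alone has circles and triangles that do not overlap, 1 of 37 genes against 3.13% of all genes tested in that direction.

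A test of the replicate numbers with genotype as a term (edgeR's quasi-likelihood test, added after the data were seen) gave an adjusted p under 0.05 for 23 of 37 members, against 10.2% of all genes tested. DESeq2's likelihood ratio test gave 36 of 37, against 24.8% of all genes. The edgeR count fell to between 3 and 19 when 1 library was left out: to 5 and 3 members without wild-type library 3 and knockout library 3, to 8 members without wild-type or knockout library 2, and to 17 and 19 without the libraries numbered 1. Of the marker lists, those of B, NK and CD4 T cells had sums in the opposite order of numbers in both genotypes. By gene, the median log2 CPM difference from number 1 to number 3 (mean of both genotypes) was -2.01 for B cell markers. It was -2.37 for NK, -1.89 for CD8 T cell, -1.17 for myeloid, -0.48 for CD4 T cell and 0.03 for Th17 markers. The edgeR test of numbers called 9 of 10 B, 2 of 5 NK and 5 of 6 CD8 T cell markers. It called 9 of 10 myeloid, 0 of 10 CD4 T cell and 1 of 7 Th17 markers. The CD4 T cell list summed to 5331, 4601 and 3548 CPM in wild-type and to 4790.0, 4757 and 3882 CPM in knockout libraries 1, 2 and 3. The B cell sums given above, and the NK sums (for numbers 1, 2 and 3, 122, 36.3 and 20.9 CPM in the wild-type and 242, 41.2 and 37.8 CPM in the knockout), were highest in the libraries numbered 1 and lowest in those numbered 3 in both genotypes. The CD8 T cell list summed to 1941, 1061 and 920.1 CPM in wild-type and to 1666, 1279.8 and 1555 CPM in knockout libraries 1, 2 and 3, an order not shared by the genotypes, and the myeloid sums were highest in number 2 (421 and 680.5 CPM). The part of these cells in the difference between numbers was not tested.

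By role, the size of the difference was largest for the glucose transporters and the hypoxia-response genes. Between numbers 1 and 3, the median difference on the log2 CPM scale (mean of both genotypes) was 1.51 for the 2 glucose transporters, 1.48 for the 8 other hypoxia-response genes and 1.25 for the 4 genes of HIF-1 control. It was 0.67 for the 4 lactate genes, 0.77 for the 3 genes of hexose phosphorylation and isomerisation, 0.83 for the 9 genes of lower glycolysis 0.85 for the 3 phosphofructokinase subunits, 0.45 for the 2 fructose 2,6-bisphosphate enzymes and 1.00 for the 2 pyruvate dehydrogenase kinases. P4ha2 had the largest difference, 2.64 in wild-type and 2.99 in knockout cells, with an adjusted p of 0.00869 (edgeR, all 6 libraries). Next were Bnip3, a mitophagy receptor gene, with 1.96 and 2.51, and Egln3 with 1.83 and 2.59. Eno2 was at the other end, with 0.11 in wild-type, -0.21 in knockout cells and an adjusted p of 0.892.

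**Figure D2:**
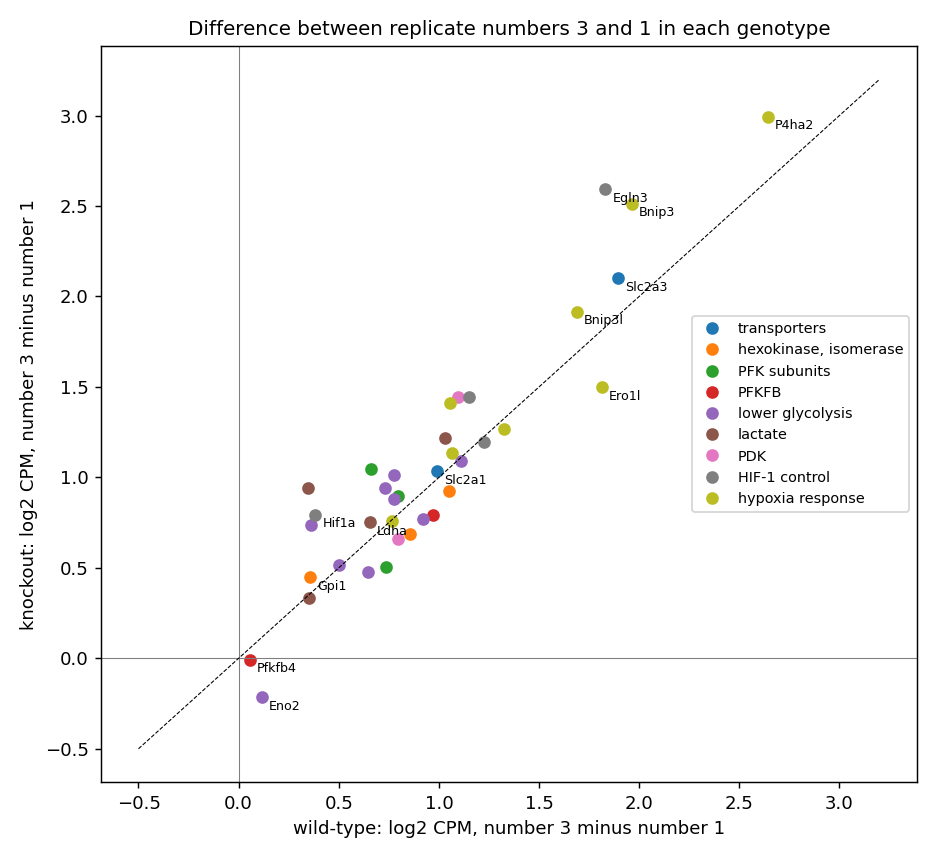
Difference in log2 CPM between libraries numbered 3 and 1 for each of the 37 genes, in wild-type (horizontal axis) and knockout cells (vertical axis), coloured by role, with a dashed line of equal values. Most points lie near the line, from Eno2 (0.11 and -0.21) to P4ha2 (2.64 and 2.99).

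Between genotypes, most of these genes were lower in knockout cells by a small amount. The log2 change of knockout against wild-type was below 0 for 34 of 37 members, against 47.6% of all genes tested, with a median of -0.17 over the members and 0.01 over all genes. In the test without the replicate number, edgeR called 0 of 37 members and 0 of 15121 genes (0.0%) at an adjusted p under 0.05, and 1 member, Eno2, and 253 genes (1.67%) at an unadjusted p under 0.05. limma-voom called 0 members and DESeq2 called 13 genes (0.086%) and 0 members. This test sets the genotypes against a spread that includes the difference between numbers. Without wild-type library 3 the median turned to 0.07 with 15 members below 0, and without knockout library 1 it was -0.02 with 19 below 0.

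Because same-numbered libraries deviated together, the genotypes were also compared within numbers. The ratio of knockout to wild-type was below 1 in all 3 numbers for 23 of 37 members, against 16.7% of all genes tested, and above 1 in all 3 for 0 members, against 16.6%. The median log2 ratio over the members was -0.31 in number 1, -0.19 in number 2 and -0.17 in number 3, the number in which both libraries contain Xist. In numbers 1 and 2 the paired libraries differ in Xist and Ddx3y as well as in genotype. The block by number cannot separate these differences. With the number as a block, edgeR again called 0 members and 0 genes (0.0%), with 13 members, all lower in the knockout, at an unadjusted p under 0.05 against 5.3% of genes lower at that level. limma-voom with the block called 0 members and 0 genes, with 12 members lower at an unadjusted p under 0.05 against 5.71% of genes. DESeq2 with the block called 381 genes (2.52%), among them 8 members, all lower (1.5% of genes were called lower): Slc2a3, Gpi1, Pfkm, Aldoa, Eno2, Egln3, P4ha1 and P4ha2. These 8 were called by paired DESeq2 alone and by no other fit on all 6 libraries, and in the tests on simulated data this fit had the largest share of unchanged genes among its calls. Those calls depended on the libraries. Without number 1 the paired DESeq2 test called 1 member (P4ha1), without number 2 it called 5, of which 4 were among the 8, and without number 3 it called 2 (Egln3 and P4ha2). In the same paired DESeq2 test, 6 of 10 B cell, 3 of 6 CD8 T cell, 4 of 10 myeloid and 1 of 5 NK cell markers were called higher in the knockout, against 1.02% of all genes. Of the 10 CD4 T cell markers 1 was called lower and 0 higher, and of the 7 Th17 markers 1 lower and 1 higher. The Th17 list includes Il17a, the gene removed in the knockout, so a lower value of that gene was fixed by the design. The part of any of these cells in the lower values of the members was not tested.

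**Figure D3:**
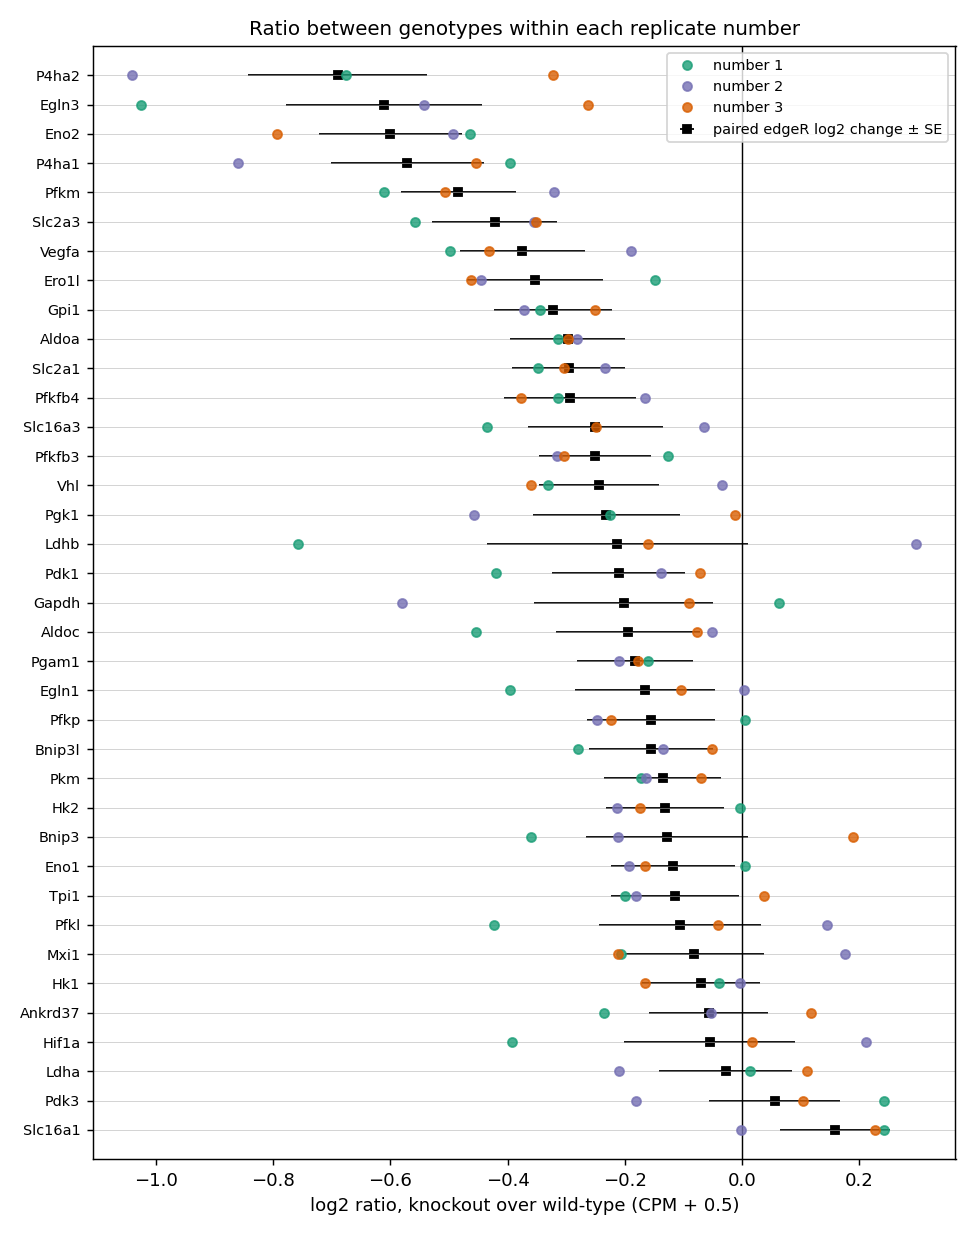
Log2 ratio of knockout to wild-type CPM (pseudocount 0.5) within replicate numbers 1, 2 and 3 (coloured points) for each of the 37 genes, with the log2 change and SE of edgeR with the replicate block (black squares and bars). Points lie left of 0 in all 3 numbers for 23 genes, and the ratios of Aldoa (-0.31, -0.28 and -0.30) nearly coincide while those of Egln3 run from -1.03 to -0.26.

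The promoters of the members were described next. In the RefSeq table of GRCm38.p6, 35 of 37 members had at least 1 window of 250 bases before a transcription start; Slc2a3 and Bnip3l had none. The letters ACGTG or GCGTG, the core of the sequence that HIF-1 is known to bind, were searched on both strands, where a CACGTG, which is also an E-box, counts on each strand. A match in at least 1 window was found for 31 of 35 members (88.6%), against 41.5% of all 27025 genes with a window and 60.8% of the 9865 such genes tested here. The members were listed as glycolysis and hypoxia-response genes, and HIF-1 can raise most genes of the pathway. A high share of matches may therefore follow from the list alone, and it says nothing about the replicate numbers. The 4 members with a window and no match were Gpi1, Eno2, Tpi1 and Vhl. Of the 8 members called by the paired DESeq2 test, 7 had a window and 5 of those a match, and of the 28 others with a window 26 had one. The windows below are those of the 3 members that, besides Eno2, had the largest changes between genotypes in the paired edgeR and DESeq2 fits. Also shown is window 1 of Ldha, a gene that was not called. Like the Bnip3 window, it holds 5 matches, the most of any member window. The last window is that of Eno2, whose values did not follow the replicate numbers. Capitals mark the matches, written 5′ to 3′ on the strand of the gene.
P4ha1, GRCm38.p6, chr10:59323046-59323295, plus strand: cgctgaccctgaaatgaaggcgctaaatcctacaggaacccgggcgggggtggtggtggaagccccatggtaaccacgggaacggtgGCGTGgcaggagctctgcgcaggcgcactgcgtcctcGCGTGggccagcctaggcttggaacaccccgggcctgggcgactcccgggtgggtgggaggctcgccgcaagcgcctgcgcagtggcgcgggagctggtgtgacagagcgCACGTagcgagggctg
P4ha2, GRCm38.p6, chr11:54100674-54100923, plus strand: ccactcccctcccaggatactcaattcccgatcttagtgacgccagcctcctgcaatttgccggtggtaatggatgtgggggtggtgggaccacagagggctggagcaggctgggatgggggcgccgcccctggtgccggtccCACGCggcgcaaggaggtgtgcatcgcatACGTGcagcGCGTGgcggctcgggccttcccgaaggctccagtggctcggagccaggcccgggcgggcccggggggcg
Egln3, GRCm38.p6, chr12:54203875-54204124, minus strand: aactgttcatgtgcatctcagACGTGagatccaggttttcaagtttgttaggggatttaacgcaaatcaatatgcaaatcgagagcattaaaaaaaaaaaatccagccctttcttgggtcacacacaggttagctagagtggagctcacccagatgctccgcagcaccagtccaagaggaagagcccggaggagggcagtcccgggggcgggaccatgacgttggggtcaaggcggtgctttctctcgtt
Ldha, GRCm38.p6, chr7:46845554-46845803, plus strand: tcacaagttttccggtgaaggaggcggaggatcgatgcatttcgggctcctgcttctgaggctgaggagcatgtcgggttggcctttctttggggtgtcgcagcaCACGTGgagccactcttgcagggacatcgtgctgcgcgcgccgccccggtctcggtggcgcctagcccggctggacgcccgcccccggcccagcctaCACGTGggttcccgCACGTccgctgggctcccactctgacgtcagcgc
Eno2, GRCm38.p6, chr6:124769674-124769923, minus strand: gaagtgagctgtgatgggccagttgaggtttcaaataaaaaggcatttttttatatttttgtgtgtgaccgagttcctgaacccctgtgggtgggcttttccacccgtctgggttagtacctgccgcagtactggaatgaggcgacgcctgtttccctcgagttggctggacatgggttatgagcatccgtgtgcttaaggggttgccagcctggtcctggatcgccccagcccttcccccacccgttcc
P4ha1 and P4ha2 hold 3 matches each, Egln3 holds 1, window 1 of Ldha holds 5 and Eno2 holds 0. Window 2 of Ldha, not shown, holds 1. A match is a description of these letters, and the binding of a factor was not measured.

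At glucose uptake, both transporter genes were lower in each knockout library than in the wild-type library of its number. Slc2a3, which encodes the high-affinity transporter GLUT3, had 337, 534 and 1255 CPM in wild-type libraries 1, 2 and 3 and 229, 417 and 984 CPM in knockout libraries 1, 2 and 3. The genotypes overlap, and the libraries numbered 3 stand well above the rest. Its log2 change was -0.43 ± 0.11 (SE) in DESeq2 with the replicate block (adjusted p = 0.00381) and -0.42 in edgeR with the block (adjusted p = 0.387). Slc2a1, the gene of the basal transporter GLUT1, had 152, 222 and 302 CPM in wild-type and 119, 189 and 245 CPM in knockout libraries 1, 2 and 3. It was lower by a like amount in each number, with log2 ratios of -0.35, -0.23 and -0.30, and was not called (paired DESeq2, adjusted p = 0.0802).

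Of the enzymes that trap and isomerise hexose, Gpi1, glucose 6-phosphate isomerase, had 1307, 1608 and 1672 CPM in wild-type and 1029, 1243 and 1405 CPM in knockout libraries 1, 2 and 3. Its groups overlap only in that knockout library 3 lies above wild-type library 1, and its difference between numbers was among the smaller ones (0.35 and 0.45 on the log2 scale). Its change was -0.33 ± 0.09 (SE) in paired DESeq2 (adjusted p = 0.0238), against an adjusted p of 0.439 in edgeR with the block. The hexokinase genes Hk1 and Hk2, whose enzymes catalyse the first step inside the cell, ranged from 179 to 382 CPM and from 140.3 to 255 CPM over the 6 libraries. Both differed among numbers (edgeR, adjusted p = 0.0232 and 0.0363), and neither was called between genotypes by any fit on all 6 libraries.

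Phosphofructokinase, the committed step, is built of subunits from 3 genes. Pfkm, the muscle-type subunit, was the least abundant of the 3 per length and had 49.9, 75.7 and 87.0 CPM in wild-type and 32.5, 60.5 and 61.0 CPM in knockout libraries 1, 2 and 3. Each knockout library is below its wild-type partner, with log2 ratios of -0.61, -0.32 and -0.51. Paired DESeq2 gave a change of -0.49 ± 0.13 (SE, adjusted p = 0.00979; paired edgeR, adjusted p = 0.366). Senp1 overlaps Pfkm on the opposite strand with counts equal to 114% of those of Pfkm, and whether strand was used in counting is not given in the sources used here. Pfkp, the platelet-type and most abundant subunit, had 510.2, 632 and 849 CPM in wild-type and 512, 532 and 727 CPM in knockout libraries 1, 2 and 3. Here the libraries numbered 1 were level between genotypes (log2 ratio 0.00) and the other numbers were lower in the knockout. Pfkl, the liver-type subunit, ranged from 142 to 301 CPM with ratios on both sides of 0.

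The bifunctional enzymes that make and remove fructose 2,6-bisphosphate, an activator of phosphofructokinase, were lower in the knockout in each number without being called. Pfkfb3 had 73.4, 76.7 and 144 CPM in wild-type and 67.2, 61.5 and 117 CPM in knockout libraries 1, 2 and 3. Pfkfb4 had 16.6, 23.8 and 17.2 CPM in wild-type and 13.2, 21.2 and 13.2 CPM in the knockout. The pair differ in shape: Pfkfb3 is highest in number 3, Pfkfb4 in number 2, and in both genes the genotypes overlap. Each had an unadjusted p of 0.0429 in edgeR with the block, and adjusted p-values of 0.307 and 0.513 in paired DESeq2.

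In lower glycolysis, all 9 genes had a log2 change below 0 and 2 were called by paired DESeq2. Aldoa, which splits fructose 1,6-bisphosphate, had 2269, 3431 and 3208 CPM in wild-type and 1824, 2824 and 2611 CPM in knockout libraries 1, 2 and 3. The groups overlap, and number 2 rather than number 3 is the highest in both. Its ratios were nearly equal in the 3 numbers (-0.31, -0.28 and -0.30 on the log2 scale), with a paired DESeq2 change of -0.31 ± 0.09 (SE, adjusted p = 0.0334; paired edgeR, adjusted p = 0.453). Gapdh had 1354, 3274 and 2567 CPM in wild-type and 1415, 2189 and 2411 CPM in the knockout, so that number 2 alone showed a large ratio (-0.58). With the counts of its near-identical copies added, Gapdh had 6486, 8964 and 9813 CPM in wild-type and 5842, 6637 and 9242 CPM in knockout libraries 1, 2 and 3. Number 3 then became the highest in both genotypes, and the log2 ratios became -0.15, -0.43 and -0.09.

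Eno2, the neuron-type enolase gene and a minor one here, differed from most other members in both comparisons. It had 21.5, 22.3 and 23.3 CPM in wild-type libraries 1, 2 and 3 and 15.4, 15.7 and 13.2 CPM in knockout libraries 1, 2 and 3. The genotypes do not overlap, which held for 1 of 37 members (2.7%). This share is no larger than the 3.13% of all genes tested that did so in this direction. The replicate numbers were level in both genotypes, while Eno1 ranged from 2021 to 3166 CPM over the wild-type libraries. The log2 change of Eno2 was -0.60 ± 0.15 (SE) in edgeR without the block (unadjusted p = 0.00491, adjusted p = 1). Paired DESeq2 put it at -0.61 ± 0.17 (adjusted p = 0.0213), and unpaired DESeq2 did not call it (adjusted p = 0.223). The log2 change lay between -0.67 and -0.50 whichever library or number was left out, and was -0.36 in edgeR with the most abundant transcript only (unadjusted p = 0.131). That transcript, Eno2-003, is annotated as a retained intron.

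Of the other 6 genes of lower glycolysis, Tpi1, Pgk1, Pgam1 and Pkm differed among numbers, Aldoc and Eno1 did not pass that threshold (edgeR, adjusted p = 0.110 and 0.0797), and none was called between genotypes. Pgam1, phosphoglycerate mutase, had log2 ratios of -0.16, -0.21 and -0.18 and differed among numbers (edgeR, adjusted p = 0.0181). With the counts of its near-identical copy added, which equal 49.97% of its own, the ratios became -0.09, -0.16 and -0.09. Pkm had 2586, 3669.7 and 4432 CPM in wild-type and 2294, 3275 and 4221 CPM in knockout libraries 1, 2 and 3, a difference among numbers with an adjusted p of 0.0334 (edgeR). The X-linked Pgk1, which makes the first ATP of the payoff phase, had 1922, 3675 and 3187 CPM in wild-type and 1645, 2675 and 3162 CPM in the knockout. Its ratio was -0.01 in number 3, where both libraries contain Xist, and -0.22 and -0.46 in numbers 1 and 2, and with the counts of its copies added -0.05, -0.30 and -0.49. Tpi1, Aldoc and Eno1 had changes between -0.19 and -0.11 in paired edgeR, with adjusted p-values of 0.654 or more.

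Pkm makes alternative enzymes from one gene by the choice between a pair of exons of 167 bases, and the isoform with the M2 exon is the one known from proliferating cells. Pkm was taken up for its transcripts after the values were seen. The transcript with the M2 exon took 91.8% ± 0.80 (SD, n = 3) of the counts per kilobase of Pkm in wild-type and 90.4% ± 1.68 in knockout cells. The transcript with the M1 exon took 8.21% ± 0.80 and 9.55% ± 1.68. The difference was within the spread of the libraries (two-sided exact permutation test over libraries, p = 0.4, smallest possible 0.1). The exons are shown because the split of counts rests on reads that tell them apart: 103 of 167 bases are identical (61.7%), and capitals mark the bases that differ, in the GENCODE M21 annotation of GRCm38.
Pkm M2 exon (exon 9 of Pkm-201), GRCm38, chr9:59675568-59675734, plus strand: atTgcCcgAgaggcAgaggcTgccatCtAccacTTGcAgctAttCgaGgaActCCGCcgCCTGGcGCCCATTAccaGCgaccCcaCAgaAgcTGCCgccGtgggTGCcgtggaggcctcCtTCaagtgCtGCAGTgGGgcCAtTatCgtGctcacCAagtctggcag
Pkm M1 exon (exon 9 of Pkm-202), GRCm38, chr9:59675029-59675195, plus strand: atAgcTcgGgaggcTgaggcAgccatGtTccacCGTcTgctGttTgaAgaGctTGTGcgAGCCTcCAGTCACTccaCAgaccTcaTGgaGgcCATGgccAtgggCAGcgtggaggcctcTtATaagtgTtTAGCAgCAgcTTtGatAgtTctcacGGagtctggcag
Over the 22 members with at least 2 transcripts of 10% or more, 57 transcripts were compared, and the shares of 2 did not overlap between genotypes, against 6.07% of 12265 transcripts of all genes. Both belong to Eno2: Eno2-002 took 7.77% ± 2.29 (SD, n = 3) in wild-type and 13.2% ± 1.42 in the knockout, and Eno2-003, annotated as a retained intron, took 39.4% ± 2.98 and 50.2% ± 6.08. Neither passed the exact permutation test (p = 0.1, the smallest that 3 against 3 libraries allow, and 1 after adjustment over the 57).

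For lactate, Ldha, the main lactate dehydrogenase subunit of these cells, was not called between genotypes by any fit. It had 1887, 2679 and 2970.4 CPM in wild-type and 1904, 2317 and 3209 CPM in knockout libraries 1, 2 and 3. The groups overlap, the ratios lie on both sides of 0, and the change was -0.02 ± 0.25 (SE) in edgeR and -0.03 ± 0.11 with the block (adjusted p = 0.951). Ldhb, the heart-type subunit, ranged from 7.64 to 23.4 CPM with ratios from -0.76 to 0.30. Slc16a3, the lactate exporter MCT4, had 194, 272 and 398 CPM in wild-type and 144, 259.8 and 335 CPM in the knockout, and differed among numbers (edgeR, adjusted p = 0.0248) but not past the threshold between genotypes. Slc16a1, which encodes the transporter MCT1, was 1 of 2 members with a positive change in edgeR, DESeq2 and limma-voom, with and without the block, 0.16 ± 0.09 (SE) in paired edgeR (adjusted p = 0.633), with 39.0, 31.9 and 49.8 CPM in wild-type and 46.3, 31.9 and 58.5 CPM in the knockout.

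The pyruvate dehydrogenase kinases keep pyruvate from entering the mitochondria. Pdk1 had 126, 200.1 and 270.1 CPM in wild-type and 94.3, 182 and 257 CPM in knockout libraries 1, 2 and 3, so that the numbers separated far more than the genotypes. The difference among numbers had an adjusted p of 0.0183 (edgeR), and the change between genotypes in paired DESeq2 was -0.22 ± 0.12 (SE, adjusted p = 0.536). The X-linked Pdk3 was the other member with a positive change, 0.06 ± 0.11 in paired edgeR (adjusted p = 0.900), and ranged from 40.2 to 75.5 CPM.

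Of the genes that control HIF-1, Hif1a itself was not called between genotypes by any fit. It had 622, 592 and 812 CPM in wild-type and 474, 686 and 821 CPM in knockout libraries 1, 2 and 3. The groups overlap and the ratios are -0.39, 0.21 and 0.02, with a change of -0.05 ± 0.15 (SE) in paired edgeR (adjusted p = 0.923). Its difference among numbers did not pass the threshold either (edgeR, adjusted p = 0.156), and that of each of the 3 genes that restrain the protein did.

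Egln3, a prolyl hydroxylase gene that HIF-1 itself is known to induce, had 274, 692 and 976 CPM in wild-type and 134, 475 and 813 CPM in knockout libraries 1, 2 and 3. Both genotypes run over the same range, but the knockout is lower in each number, most in number 1. Paired DESeq2 put the change at -0.62 ± 0.16 (SE, adjusted p = 0.00907; paired edgeR, adjusted p = 0.394), and the call was lost without number 1. Egln1, the hydroxylase gene known for setting HIF-1α levels in normal oxygen, had 169.8, 271 and 378 CPM in wild-type and 129, 271 and 351 CPM in the knockout. Vhl, which encodes the von Hippel-Lindau protein, had 38.2, 49.1 and 90.0 CPM in wild-type and 30.2, 48.0 and 70.0 CPM in the knockout. In number 2 neither gene differed by more than 0.04 on the log2 scale, and both differed among numbers (edgeR, adjusted p = 0.0195 and 0.0164).

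Among the other hypoxia-response genes, the collagen prolyl 4-hydroxylase subunits had the largest changes of their role. P4ha1 had 164, 383 and 414 CPM in wild-type and 125, 211 and 302 CPM in knockout libraries 1, 2 and 3. The groups overlap only through wild-type library 1, which is below knockout libraries 2 and 3. Its change in paired DESeq2 was -0.58 ± 0.13 (SE, adjusted p = 0.00144; paired edgeR, adjusted p = 0.374), and it stayed called without number 1 or without number 2 and not without number 3. P4ha2 had 16.5, 73.7 and 106 CPM in wild-type and 10.2, 35.6 and 84.5 CPM in the knockout. Its log2 ratios of -0.67, -1.04 and -0.32 are smaller than its difference between numbers. Paired DESeq2 gave a change of -0.70 ± 0.17 (SE, adjusted p = 0.00499; paired edgeR, adjusted p = 0.366).

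Ero1l, an oxidase of the endoplasmic reticulum, had 296, 601 and 1041 CPM in wild-type and 267, 441 and 756 CPM in knockout libraries 1, 2 and 3. Vegfa, the angiogenic growth factor and a classical HIF-1 target, had 91.5, 121 and 192 CPM in wild-type and 64.6, 106 and 142 CPM in the knockout. Both were lower in each number with overlapping groups, and both missed the threshold in paired DESeq2 (adjusted p = 0.0567 and 0.0601). Bnip3l, a mitophagy receptor gene related to Bnip3, had 208, 428 and 669.9 CPM in wild-type and 171, 389.7 and 647 CPM in the knockout, so its numbers separated and its genotypes did not. Bnip3, Ankrd37 and Mxi1, the last a MYC antagonist gene, had paired edgeR changes between -0.13 and -0.06 with ratios of both signs. Ankrd37 is overlapped on the opposite strand by Ufsp2, whose counts equal 108% of its own.

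Genes of the neighbouring pathways are set beside these counts. They were listed by function, also with earlier results of these data known. In 27 measured hypoxia-response genes outside the 37 (28 listed), 21 had a log2 change below 0, with a median of -0.20, and paired DESeq2 called 4 lower and 0 higher: Car12, a carbonic anhydrase gene (-0.86 ± 0.15 (SE), adjusted p = 3.14e-06), Ndrg1, Kdm3a and Jmjd6. Of these 27, 13 differed among replicate numbers (edgeR, adjusted p under 0.05), 12 of them with number 3 above number 1, and Hmox1 with number 3 below. Glycogen-branching Gbe1 differed between numbers 3 and 1 by 2.85 and 3.24 on the log2 scale in wild-type and knockout cells, more than any of the 37.

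Pathways next to glycolysis but outside the hypoxia response had median log2 changes between -0.11 and 0.11. The 13 measured of 20 other glycolytic enzymes and isoforms had a median log2 change of 0.11, with 5 below 0, and 3 of the 13 differed among numbers. For the 16 tricarboxylic acid cycle genes the median was 0.04 with 6 below 0, for the 11 measured of 12 genes of pyruvate entry it was 0.08 with 2 below 0, and for the 8 genes of the pentose phosphate pathway 0.08 with 2 below 0. The 10 other transport genes had a median of -0.11 with 7 below 0, the 12 other HIF subunits and regulators one of -0.09 with 9 below 0 and the 12 growth regulators of glycolysis (such as Myc and Mtor) one of 0.00 with 7 below 0. No gene of these 7 lists was called between genotypes by any fit on all 6 libraries, and the smallest unadjusted p-values in edgeR belonged to Pfkfb1 and Ldhd, Slc16a7 and Slc2a4, Mpc2 and Pdhx, Fh1 and Idh3a, Rpia and Rpe, Arnt2 and Epas1, and Rheb and Stk11. The lowest of these was that of Arnt2, 0.0504, at 1.07 to 6.21 CPM. Among numbers, 3 transport genes, 1 gene of pyruvate entry, 1 of the tricarboxylic acid cycle, 1 HIF regulator, 1 growth regulator and 0 pentose phosphate genes passed the same edgeR threshold.

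**Figure D4:**
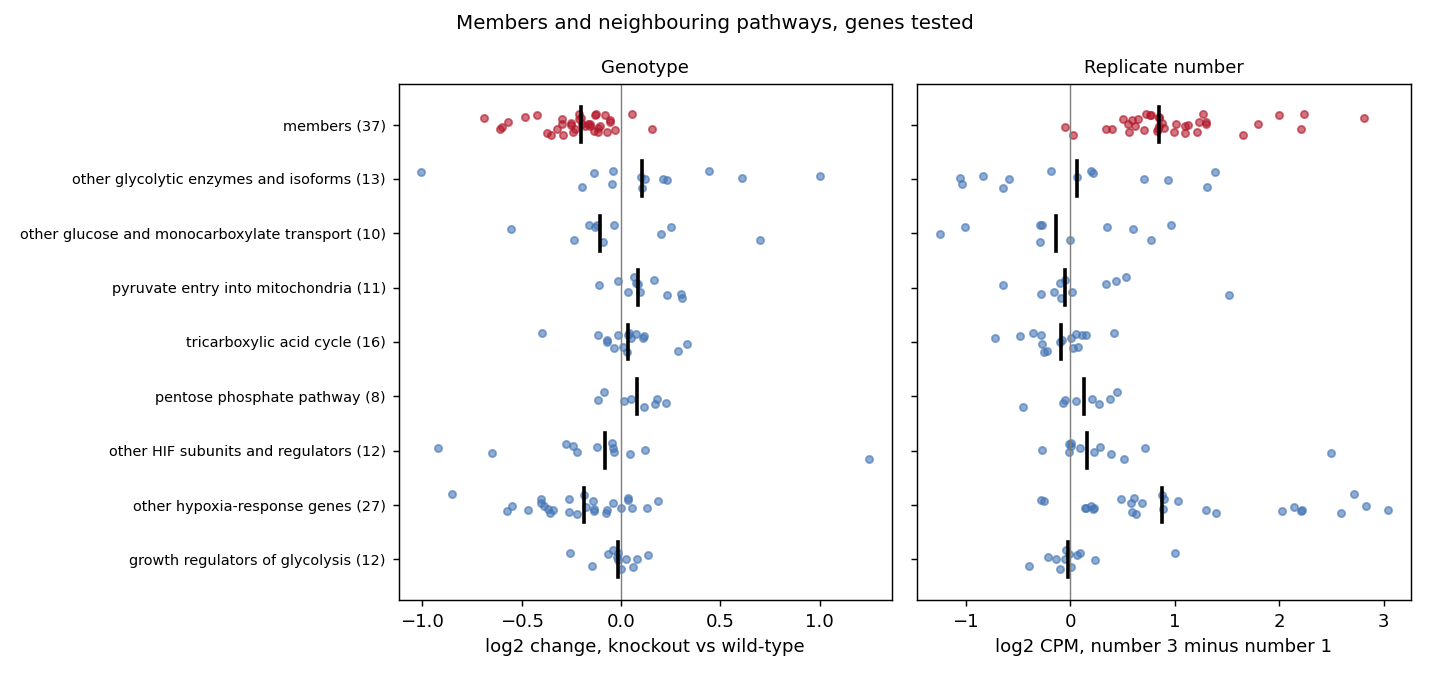
Log2 change of knockout against wild-type in edgeR with the replicate block (left) and difference in log2 CPM between numbers 3 and 1, mean of both genotypes (right), for the 37 genes (red) and 8 lists of neighbouring pathways (blue), with the median of each list as a bar and the number of genes tested in brackets. The 37 genes (medians -0.20 and 0.85) and the other hypoxia-response genes (-0.19 and 0.88) lie to the left of 0 in one panel and to the right in the other, and the medians of the remaining lists lie closer to 0 in both panels.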

How the data were processed

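Poly(A) RNA of 6 cultures was sequenced from stranded libraries, per the labels' protocols. The authors' deposited table gives estimated counts for 93480 transcripts, made with Bowtie2 2.1.0 and eXpress 1.3.1 on GRCm38, per the submitters' processing notes. Neither the gene annotation nor the use of strand in counting is given in the sources used here. Estimated counts were summed per gene and rounded, and eXpress splits reads among similar transcripts, so genes with near-identical copies are uncertain. Genes were kept by filterByExpr and scaled by TMM, with a pseudocount of 0.5 CPM for ratios. The genotypes were compared in edgeR 4.0.16 (quasi-likelihood test, Benjamini-Hochberg over 15121 genes, threshold 0.05, R 4.3.3), without the replicate number, and as alternatives with it as a block, in DESeq2 1.42.0 and limma 3.58.1 (voom), with other size factors, no filter, the most abundant transcript, and leaving out libraries. Fits were tested on simulated data, where those with the block recovered more of the changed genes and also called more unchanged ones. The simulated data were built with the differences between numbers and the spread of the blocked fit. The gain of the block was thus built in and does not show that the block suits the real data. DESeq2 with the block gave no adjusted p for 880 genes. The numbers come from the titles, which do not say what they mark, and they pair the libraries: deviations from the genotype means correlated by 0.60, 0.45 and 0.64 within numbers and by -0.47 to -0.17 between them. The negative values follow from the positive ones, because deviations from a mean of 3 libraries sum to 0. The p-values of the fits set a difference against the spread between these libraries. In fits with the block, that is the spread left after the differences between numbers are taken out. The members and lists were chosen with earlier results of these data known. Values per library are given for members with an unadjusted p under 0.05 in edgeR or an adjusted p under 0.05 in any fit on all 6 libraries, for the most abundant of a role and for the regulators (21 members), and others where a sentence needs them. Promoter windows are from RefSeq (GRCm38.p6) and exons from GENCODE M21, which may not be the release of the table.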

Additional observations from a re-analysis of the deposited data

How the results depend on the processing

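With the replicate block, paired by number, edgeR kept the count of genes called between genotypes at 0, of members at 0 and of genes in the neighbouring pathways at 0, with a member median of -0.20. DESeq2 called 13 genes without the block, and with the block 381 genes, 8 members and 4 genes of the neighbouring pathways. Leaving out 1 library, or 1 number in the paired fits, moved the genes called over 0 to 264, the members called over 0 to 5, the neighbouring genes called over 0 to 4 and the member median over -0.46 to 0.069, the last without wild-type library 3. For replicate numbers, the DESeq2 likelihood ratio test called 3757 genes and 36 members, the most abundant transcript alone 474 genes in edgeR, and leaving out 1 library 168 to 1582 genes and 3 to 19 members. Leaving out a library means fewer samples, and the cause of the other differences was not tested. Transcript shares that did not overlap numbered 4 when taken from counts rather than counts per kilobase, and 3 to 9 with a library left out. Of 420 alternative values for 21 members, 382 kept their side of the threshold and direction, 16 passed the threshold and 22 changed sign, all 22 with a library or number left out. The log2 changes that changed sign then ranged from -0.54 to 0.037 for Gapdh, -0.28 to 0.13 for Ldha, -1.16 to 0.31 for Slc2a3, -0.37 to 0.038 for Pfkp, -0.64 to 0.11 for Pfkfb3, -0.55 to 0.13 for Pdk1, -0.24 to 0.15 for Hif1a, -0.47 to 0.18 for Egln1, -0.62 to 0.17 for Vhl, -0.66 to 0.33 for Bnip3l and -0.89 to 0.11 for Ero1l. All of these 11 genes but Hif1a and Ldha stayed below 0 in every paired fit. Where a fit leaves 2 libraries in a genotype, they are assumed to vary like the other group.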
